A study of Homo sapiens with 4 samples.

Results

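Long noncoding RNAs and the host genes of small nucleolar RNAs (snoRNAs) were followed across 4 macrophage states of THP-1, an established human acute monocytic leukaemia line. Members were chosen by name and by detection p-values measured on these same arrays: all probes whose single gene symbol begins with LINC, SNHG or SNOR, ends in -AS1, or is DANCR, NEAT1, MALAT1, GAS5, MIR155HG, MEG3, H19 or EPB41L4A-AS1, and whose signal was detected on at least 1 array. A probe counted as detected where its deposited detection p-value, the rank of its signal among the negative-control beads, was below 0.01. This gave 158 probes for 146 genes, of 47228 probes on the array and of 816 probes whose names met the rule. They fall into 19 probes for 14 snoRNA host genes, 41 probes for 41 snoRNAs, 46 probes for 42 intergenic (LINC) RNAs, 51 probes for 48 antisense RNAs and 1 probe for MIR155HG. The current gene table holds no symbol for 1 of them, LINC00950.

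Total RNA of unpolarised M0 macrophages was compared with that of M1 cells, made from M0 with interferon-gamma and lipopolysaccharide, M2a cells, made with interleukin-4, and M2c cells, made with interleukin-10. All 4 states come from THP-1, and the agent that turns the monocytic line into M0 macrophages, the doses and the exposure times are not stated in what was read here. Each state had 1 array, so no difference has a replicate check, no test was run, and array, culture and state cannot be told apart. The arrays detected between 12937 probes (M1) and 14818 probes (M0). All 9 macrophage and monocyte marker genes were detected on every array, and the epithelial, fibroblast and erythroid markers were detected on none of them. Of the T cell markers CD2 was detected on M1 alone (log2 levels of 5.01 on M0, 6.01 on M1, 4.83 on M2a and 4.91 on M2c) while CD3D and CD3E were not detected, and of the B cell markers CD79A was detected on M0 alone while MS4A1 was not detected. Their part in the results was not tested.

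snoRNAs guide chemical modification of ribosomal and spliceosomal RNA: box C/D members direct methylation and box H/ACA members direct pseudouridylation. Most human snoRNAs are cut from introns, either of genes for ribosomal and translation proteins or of noncoding host genes (SNHG), whose spliced transcripts are often short lived, and both kinds of host tend to begin with a run of pyrimidines that is known from translation-linked genes. MIR155HG, also called BIC, is the primary transcript of miR-155, a microRNA known for its induction in macrophages by Toll-like receptor ligands and interferons, while antisense and intergenic RNAs are a mixed class, many of unknown function.

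The sequences that frame the host-gene results come from RefSeq on GRCh38.p14, which lists promoters for 79 of the 146 member genes. The MIR155HG transcript carries both arms of miR-155, shown because MIR155HG had the largest rise among the members. Capitals mark the seed, bases 2 to 8.
hsa-miR-155-5p (chr21:25573983-25574006, + strand): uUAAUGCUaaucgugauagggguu
hsa-miR-155-3p (chr21:25574022-25574043, + strand): cUCCUACAuauuagcauuaaca
The MIR155HG promoter is shown from 250 bases before the start to 50 after it. Its capitals mark, in order, a match to the interferon-stimulated response element (the 10 letters shown in capitals first), a gamma-activated-site match (TTCNNNGAA), an AP-1 match (TGANTCA) and a TATA match (TATAAA), none of which overlap.
MIR155HG promoter (chr21:25561895-25562194, + strand): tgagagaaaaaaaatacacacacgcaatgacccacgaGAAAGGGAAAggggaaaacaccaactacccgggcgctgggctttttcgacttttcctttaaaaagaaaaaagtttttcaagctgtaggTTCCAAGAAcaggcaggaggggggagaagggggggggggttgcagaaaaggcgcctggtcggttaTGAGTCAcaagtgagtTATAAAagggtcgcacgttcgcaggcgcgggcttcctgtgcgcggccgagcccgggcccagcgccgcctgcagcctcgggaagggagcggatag
They begin at positions -213, -125, -60 and -44 relative to the start. On both strands of all 35116 promoters of this length, the same 4 motifs were present in 3.57%, 7.66%, 7.71% and 11.5%. The NF-kappaB motif searched, present in 5.91% of all promoters, had no match in these letters.

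The starts of 11 host genes with an entry are shown because the run of pyrimidines at the start is a feature the member rule did not use. Each line gives 20 bases before and 20 from the start on, with the longest run of C and T that begins within 5 bases of the start in capitals.
DANCR (chr4:52712374-52712413, + strand): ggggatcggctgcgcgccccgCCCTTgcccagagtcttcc
EPB41L4A-AS1 (chr5:112160506-112160545, + strand): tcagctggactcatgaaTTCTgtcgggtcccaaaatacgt
SNHG1 (chr11:62855866-62855905, - strand): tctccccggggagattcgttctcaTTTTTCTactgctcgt
SNHG10 (chr14:95534853-95534892, - strand): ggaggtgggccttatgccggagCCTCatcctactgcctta
SNHG11 (chr20:38446634-38446673, + strand): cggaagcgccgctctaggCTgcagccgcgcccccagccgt
SNHG12 (chr1:28581854-28581893, - strand): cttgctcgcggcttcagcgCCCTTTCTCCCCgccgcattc
SNHG17 (chr20:38435309-38435348, - strand): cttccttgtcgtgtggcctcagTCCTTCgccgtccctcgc
SNHG32 (chr6:31834896-31834935, + strand): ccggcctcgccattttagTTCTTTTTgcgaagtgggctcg
SNHG5 (chr6:85678714-85678753, - strand): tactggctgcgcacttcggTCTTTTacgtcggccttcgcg
SNHG7 (chr9:136728165-136728204, - strand): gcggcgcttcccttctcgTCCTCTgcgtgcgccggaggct
SNHG8 (chr4:118278742-118278781, + strand): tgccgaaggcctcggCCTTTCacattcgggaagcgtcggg
A run of at least 6 pyrimidines was present in 7 of these 11 starts (63.6%), against 14.9% of the 35116 promoters. The LINC members had one in 7 of 36 starts (19.4%) and the antisense members in 3 of 46 (6.52%). SNHG12 had the longest, of 12 bases, and SNHG11 the shortest, of 2. DANCR had a run of 5, just under the minimum, and EPB41L4A-AS1 and SNHG10 runs of 4. SNHG15, SNHG6 and SNHG9 have no line here.

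Detection was uneven across arrays and classes. Of the 158, 53 (33.5%) were detected on all 4 arrays, against 64.8% of the 16965 probes detected anywhere. The M0 array detected 105 members, M1 94, M2a 96 and M2c 91. The M1 array alone detected 26 of them (16.5%), while 5.05% of all detected probes were seen on that array alone. The share seen on a single array was also above that of all detected probes for the other arrays. M0 alone detected 12 members (7.59%, against 3.88%), M2a alone 12 (7.59%, against 3.92%) and M2c alone 7 (4.43%, against 1.26%). The host genes differed from the other classes here, with 14 of 19 probes detected on all arrays and the remaining 5 on at least the M0 array.

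Several well-known noncoding RNAs could not be followed. NEAT1, the scaffold of paraspeckles, has no probe with its name in the annotation. MALAT1, a nuclear speckle RNA, gave raw intensities of 104.4 (M0), 90.1 (M1), 101.1 (M2a) and 97.4 (M2c), with detection p-values of at least 0.429. GAS5, a snoRNA host named for growth arrest, gave 113.0, 104.1, 112.8 and 103.8, with detection p-values of at least 0.131. The single H19 probe, the 2 MEG3 probes and the probes of SNHG3, SNHG4, SNHG20 and SNHG28 were not detected on any array either. This says only that these probes were not above the control beads, not that the RNAs were absent. At the edge of the rule, the last members inside were LINC00205, LINC02172 and HAND2-AS1, each with a lowest detection p-value of 0.00909, and the nearest outside were RUSC1-AS1, MAPT-AS1 and SNORD114-2, each at 0.0104.

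Comparison of M1 with M0 asked which noncoding RNAs differed on the array of cells given interferon-gamma and lipopolysaccharide. MIR155HG, both SNHG15 probes, ATP2B1-AS1 and LINC01018 rose, and LINC01451, SNORA61, NFYC-AS1 and SNHG6 fell. These 9 probes passed 2-fold under all 4 other treatments of the intensities. Among these treatments the authors' normalized table and the uncorrected background are nearly the same (sorted values within 0.437%) and are not separate checks. Levels are log2 intensities after background correction and quantile normalization of the 4 arrays, and a probe passed where 2 arrays differed by at least 2-fold (1.0 on the log2 scale) and at least 1 of them detected it. Of 136 members detected on M0 or M1, 31 rose (22.8%) and 19 fell (14.0%), against 15.0% of all 16019 such probes that rose and 17.6% that fell. The members' median log2 difference was 0.18, and that of all these probes was -0.17. These differences follow normalization, and the median raw intensity of the array was 110.7 on M0 and 102.9 on M1. Among the 63 members detected on both arrays 12 rose (19%) and 6 fell (9.52%), against 13.9% and 13.5% of all such probes. The other calls have a bound in place of a fold, the bright array's value over the higher of the probe's own value and the lowest detected value on the dim array, and this bound was at least 2-fold for 8 of the remaining 19 rises and 4 of the remaining 13 falls. Most of these calls rested on dim probes. In the authors' own normalized table, which keeps the background, 5 of the 136 members rose and 4 fell. Both shares lie below those of all tested probes there, 7.57% and 6.88%. At an offset of 50 the members' 14 rises and 8 falls stood against 10.0% and 10.5%. With the arrays scaled to a common median 44 rose and 9 fell, against 20.1% and 10.5% of all tested probes.

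**Figure D1:**
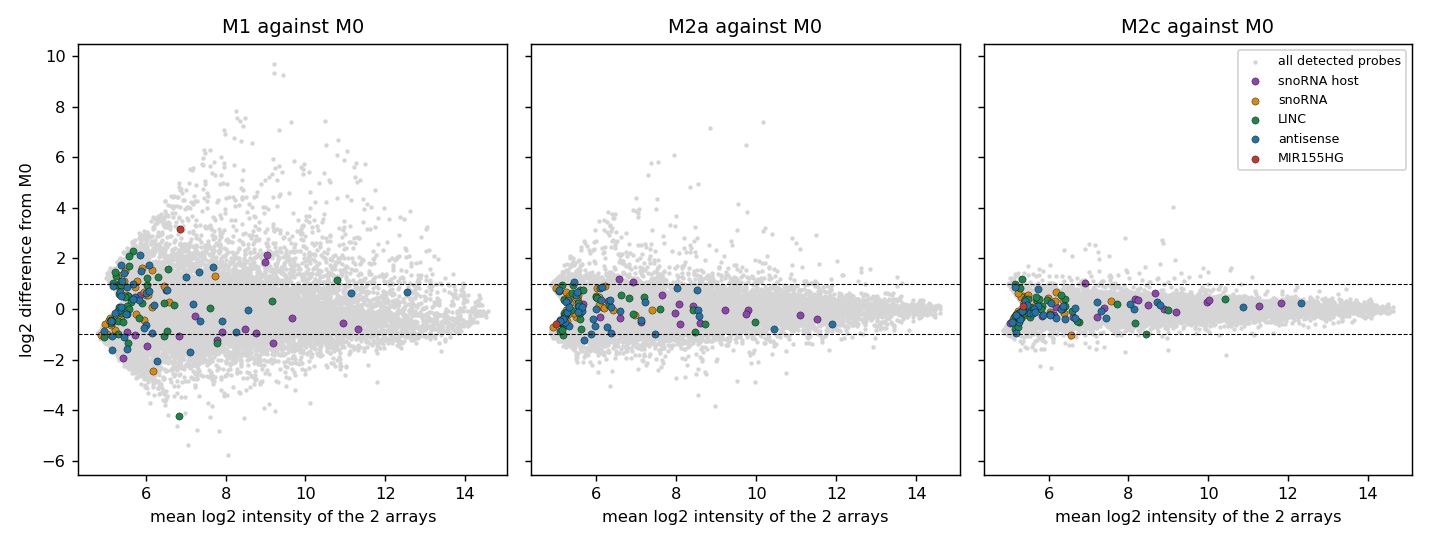
Log2 difference from the M0 array (y axis) against the mean log2 intensity of the 2 arrays (x axis) for M1, M2a and M2c, with grey points for all probes detected on at least 1 of the 2 arrays, coloured points for member probes by class and dashed lines at 2-fold. Most members lie at the dim end, and 50 of 136 lie past the lines on M1 against 5 of 124 on M2a and 3 of 118 on M2c.

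MIR155HG had normalized log2 levels of 5.29 on M0, 8.43 on M1, 4.69 on M2a and 5.41 on M2c. Its raw intensities were 128.2, 319.3, 109.4 and 134.0 in the same order. The M1 array stood apart, and the M2a and M2c arrays did not detect the transcript at the 0.01 level. The rise on M1 was 8.86-fold (3.15 on the log2 scale), with the M0 signal itself close to the limit at a detection p-value of 0.00909. Across the other treatments of the intensities the log2 difference lay between 1.79 and 3.33. The array does not measure the mature miR-155 sequences printed above.

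The genes that process microRNAs and those known as miR-155 targets were read beside it. Of 20 such genes 18 were detected on M0 or M1. Of these, 5 were higher on M1 (27.8%, against 15.0% of all tested probes), 2 were lower (11.1%, against 17.6%) and 11 did not pass. Their median log2 difference was -0.09, or 0.12 after scaling to a common median, so the direction of the median flips with the scaling. SOCS1, an inhibitor of cytokine signalling and a known target, had log2 levels of 4.84 on M0, 8.62 on M1, 7.91 on M2a and 5.10 on M2c, and was not detected on M0 or M2c. CEBPB, a myeloid transcription factor, rose by 2.08 on the log2 scale on M1, and IKBKE, a kinase of interferon induction, by 1.64. ZNF652 (1.52) and SPI1 (1.06), the myeloid factor PU.1, also rose. MAF, a transcription factor known from alternatively activated macrophages, fell by 1.40 on M1 and rose by 1.15 on M2a. ETS1 fell by 1.04 on M1 and by 1.03 on M2a. The processing genes DROSHA, DGCR8, XPO5, DICER1, AGO1, AGO2 and TARBP2 had differences between -0.81 and 0.30 on M1, and none of the 7 passed.

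Among the snoRNA host genes, SNHG15 went one way and most of the others the other way on M1. SNHG15, host of SNORA9, had log2 levels of 7.97 on M0, 10.10 on M1, 8.15 on M2a and 8.37 on M2c by its brighter probe on M1, and 8.05, 9.93, 7.90 and 8.41 by the other. Both probes read highest on M1, and the other 3 arrays lay close together. The rises were 4.38-fold and 3.69-fold. The smallest log2 differences under any other treatment were 1.81 and 1.60.

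Of the 19 host probes, 14 were lower on M1 than on M0 and 6 of these passed 2-fold (31.6%, against 17.6% of all tested probes), with a median log2 difference of -0.79 (between -0.63 and -0.38 under the 4 other treatments). The lower calls came to 1 (5.26%) in the authors' table and with the background left in, below the 6.88% and 6.87% of all probes. They came to 3 (15.8%) at an offset of 50 and 4 (21.1%) with the common median, against 10.5% of all probes in each. There were 2 higher calls (10.5%) in each setting. SNHG6, host of SNORD87, had log2 levels of 9.85 on M0, 8.50 on M1, 9.65 on M2a and 10.20 on M2c, and raw intensities of 1054.7, 333.2, 947.4 and 1371.4. Its M1 value was the lowest of the 4 and its fall was 2.54-fold. SNHG7, host of SNORA17A and SNORA17B, fell by 3 probes: 1.23 on the log2 scale (2.35-fold) by the probe detected on all arrays, and 1.48 (at least 2.24-fold) and 1.04 (at least 1.55-fold) by probes that the M1 array did not detect. The first of these had log2 levels of 8.41 on M0, 7.18 on M1, 7.80 on M2a and 8.56 on M2c. SNHG9, host of SNORA78, had 7.36, 6.31, 7.93 and 7.41, a fall of 2.08-fold on M1. SNHG9 did not pass under any of the 4 other treatments, with a smallest log2 difference of -0.60. The 3 SNHG7 probes, in the order given, passed in 2, 1 and 0 of the 4, with smallest differences of -0.88, -0.65 and -0.40.

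DANCR, host of SNORA26 and known as a repressor of differentiation, moved in opposite directions on M1 and on both M2 arrays. Its log2 levels were 6.39 on M0, 4.46 on M1, 7.44 on M2a and 7.42 on M2c, and its raw intensities 181.2, 93.1, 262.9 and 295.8. The M1 array did not detect it, at a detection p-value of 0.623, and it was at least 1.71-fold lower there than on M0, with a smallest log2 difference of -0.79 under the other treatments. It rose 2.07-fold on M2a and 2.05-fold on M2c, comparisons that share the M0 array. The DANCR promoter is shown because these shifts lie on either side of M0. Its capitals mark a gamma-activated-site match (TTCNNNGAA) and 5 CCAAT boxes on either strand (as CCAAT or ATTGG), with no overlap.
DANCR promoter (chr4:52712144-52712443, + strand): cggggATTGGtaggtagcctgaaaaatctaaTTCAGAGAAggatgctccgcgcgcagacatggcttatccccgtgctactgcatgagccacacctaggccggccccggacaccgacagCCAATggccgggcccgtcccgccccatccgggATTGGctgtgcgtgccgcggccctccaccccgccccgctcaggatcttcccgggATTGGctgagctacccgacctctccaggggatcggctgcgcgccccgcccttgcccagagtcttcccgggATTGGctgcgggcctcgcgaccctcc
All 35116 promoters held the first of these motifs in 7.66% of cases and CCAAT in 34.6%. Of the 94 promoters listed for member genes, 4 (4.26%) held the first and 32 (34.0%) held CCAAT. SNHG7, which fell by 3 probes, has an E-box (CACGTG, in 7.26% of all promoters and 8.51% of member promoters) and a TATA match, both in capitals.
SNHG7 promoter (chr9:136728135-136728434, - strand): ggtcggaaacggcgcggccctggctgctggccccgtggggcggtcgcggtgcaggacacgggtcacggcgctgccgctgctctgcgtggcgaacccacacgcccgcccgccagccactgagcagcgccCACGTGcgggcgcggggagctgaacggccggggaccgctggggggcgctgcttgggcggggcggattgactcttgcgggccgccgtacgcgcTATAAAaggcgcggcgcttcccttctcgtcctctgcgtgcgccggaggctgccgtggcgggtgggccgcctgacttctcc
The interferon-response motif was in 5.32% of member promoters, against 3.57% of all.

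The remaining host genes did not pass on M1. SNHG8 (host of SNORA24), SNHG1 (host of 9 annotated snoRNAs), SNHG10 and EPB41L4A-AS1 (host of SNORA13) had log2 differences of -0.96, -0.89, -0.89 and -0.79. SNHG1 read 8.36 on M0, 7.47 on M1, 8.49 on M2a and 8.98 on M2c. SNHG32, host of SNORD48 and SNORD52, read 11.71, 10.94, 11.31 and 11.96 by the probe detected everywhere, a difference of -0.77, whereas its dim probe read 0.50 higher on M1. SNHG5, host of SNORD50A and SNORD50B, differed by -0.57 and -0.35 by its 2 probes, and SNHG17 by -0.29. SNHG11 (0.76) and SNHG12 (0.54) had positive normalized differences, although their raw intensities were slightly lower on M1 (161.3 against 166.0, and 131.3 against 139.0).

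**Figure D2:**
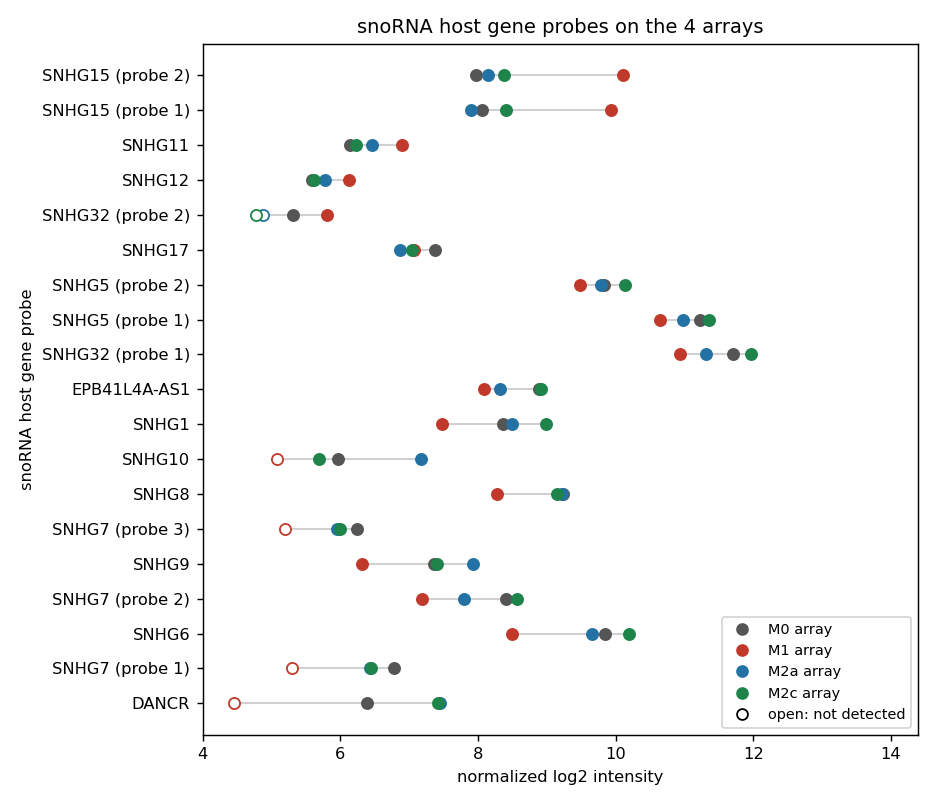
Normalized log2 intensity (x axis) of the 19 snoRNA host probes (y axis, ordered by the difference between M1 and M0) on the 4 arrays, with open circles where the array did not detect the probe. The red M1 point is the lowest of the 4 for most probes below SNHG17 and lies to the right of the others for both SNHG15 probes.

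Protein-coding snoRNA hosts that passed on M1 were all lower. Of 28 detected on M0 or M1, 11 fell and none rose, and the median difference on the log2 scale was -0.81. After scaling to a common median 2 fell (7.14%, below the 10.5% of all tested probes) and the median was -0.32. NCL, the nucleolar protein nucleolin, fell by 1.60 on the log2 scale, from 12.02 to 10.42. The ribosomal protein genes RPL23 and RPL23A fell by 1.54 and 1.39. None of the 28 passed on M2a or M2c.

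Of 8 core proteins of box C/D and box H/ACA snoRNA particles 5 fell on M1 (62.5%, against 17.6% of all tested probes). None rose, and the median was -1.09. With a common median 3 of 8 fell (37.5%, against 10.5%), and the median was -0.91. NOP56 (-0.72), GAR1 (-0.81) and NOP10 (0.27) did not pass. NOP58, a box C/D core protein, read 8.59 on M0, 6.84 on M1, 7.73 on M2a and 8.74 on M2c, a fall of 1.75. SNU13, which binds the box C/D kink-turn, fell by 1.36, and DKC1, the pseudouridine synthase dyskerin, by 1.35. Of 8 detected assembly factors, ZNHIT6 fell by 1.41, NAF1 rose by 1.05 and the other 6 did not pass, with SHQ1 at -0.93. Nonsense-mediated decay is the pathway known to degrade many spliced SNHG transcripts. Of its 10 detected factors SMG5 rose by 1.05 on M1 and none passed as lower. SMG1 and UPF2 differed by -1.0 (rounded, just short of 2-fold) and -0.8 on M1. Both passed on M2a, where UPF2 fell by 1.32 and SMG1 by 1.09.

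The nuclear bodies built on NEAT1 and MALAT1 could be read only through their proteins. Of 10 detected paraspeckle proteins 3 fell on M1 and none rose: NUDT21 by 1.60, HNRNPH3 by 1.53 and MATR3 by 1.27, with a list median of -0.67 (2 of 10 and -0.14 with a common median). Of 9 splicing proteins of nuclear speckles 4 fell (44.4%, against 17.6%) and none rose. Among the falls were SRSF6 by 1.61, SRSF1 by 1.5 and SRSF2 by 1.07. With the common median 2 of the 9 fell (22.2%, against 10.5%), and the list median went from -0.77 to -0.48. NUDT21, a cleavage and polyadenylation factor, also fell by 1.16 on M2a. No gene of the 7 lists passed on M2c.

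Of the 30 snoRNA probes tested on M1, 7 rose (23.3%) and 2 fell (6.67%), against 15.0% and 17.6% of all tested probes. In the authors' table none rose and 1 fell (3.33%), against 7.57% and 6.88%. Leaving the background in gave the same snoRNA counts. The common median gave 11 (36.7%) and 1 (3.33%), against 20.1% and 10.5%. The snoRNAs' median difference on the log2 scale was 0.55 (0.21 to 0.73 under the alternatives), against -0.17 over all tested probes. Positive differences did not always go with a higher raw intensity on M1. SNORA6 (137.0 on M1 against 140.8 on M0), SNORA10 (136.2 against 145.0) and SNORA67 (138.3 against 146.6) had differences of 0.68, 0.55 and 0.57. The 7 that rose by at least 2-fold had higher raw intensities on M1. SNORA61, a box H/ACA snoRNA in an intron of SNHG12, had log2 levels of 7.41 on M0, 4.96 on M1, 7.37 on M2a and 7.71 on M2c. Its raw intensities were 278.9, 108.8, 254.6 and 340.4. The M1 array alone did not detect it, and it was at least 3.48-fold lower there, while its host SNHG12 differed by 0.54. SNORA50C, the other snoRNA that fell, had a difference of -1.02, a raw intensity of 131.4 on M0 against 86.4 on M1, and no bound above 1. Mature snoRNAs carry no poly(A) tail, and whether these probes read mature snoRNAs or longer precursors was not tested.

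The 3 probes for U3, the box C/D RNA needed for cleavage of the ribosomal RNA precursor, rose together on M1. SNORD3A had log2 levels of 7.08 on M0, 8.39 on M1, 6.86 on M2a and 6.06 on M2c, highest on M1 and lowest on M2c. It rose 2.47-fold on M1 and fell 2.04-fold on M2c. SNORD3D rose 2.91-fold on M1 and SNORD3C at least 2.76-fold. These are near-identical gene copies, so the 3 probes may read the same RNA and are not independent. SNORD84, SNORA12, SNORA5B and SNORD89 also rose on M1, with bounds of 1.97-fold, 1.64-fold, 1.66-fold and 2.09-fold, each detected there and not on M0, with raw intensities of 127.5 to 137.9 on M1 against 108.0 to 126.8 on M0. The 21 tested snoRNAs that did not pass on M1 were SNORA10, SNORA11D, SNORA14B, SNORA24, SNORA33, SNORA41, SNORA57, SNORA5C, SNORA6, SNORA62, SNORA65, SNORA67, SNORA70, SNORD101, SNORD104, SNORD13, SNORD14A, SNORD36A, SNORD36C, SNORD6 and SNORD80, with log2 differences from -0.97 (SNORD80) to 0.97 (SNORA5C). The remaining 11, SNORA18, SNORA25, SNORA64, SNORA7B, SNORD108, SNORD14C, SNORD35B, SNORD4A, SNORD52, SNORD73A and SNORD99, were detected on neither M0 nor M1.

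By RefSeq gene intervals 36 of the 41 snoRNAs lie inside another gene, and 32 have a host with a probe. Of 19 pairs of snoRNA and host that were both detected on M0 or M1, the snoRNA passed in 5. In none of these did the host pass too. On M1 15.0% of all tested probes rose and 17.6% fell, and whether none of 5 departs from these shares was not tested. SNORD84 rose while its host DDX39B, an RNA helicase, differed by -0.18. SNORA12 rose while CWF19L1 differed by -0.29, SNORA5B while TBRG4 differed by 0.13 and SNORD89 while RNF149 differed by 0.86. SNORA24 differed by -0.83 and its host SNHG8 by -0.96, neither of which passed. SNORA14B, inside TOMM20, read 0.96 higher on M1 while TOMM20, a mitochondrial import receptor, fell by 2.14.

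**Figure D3:**
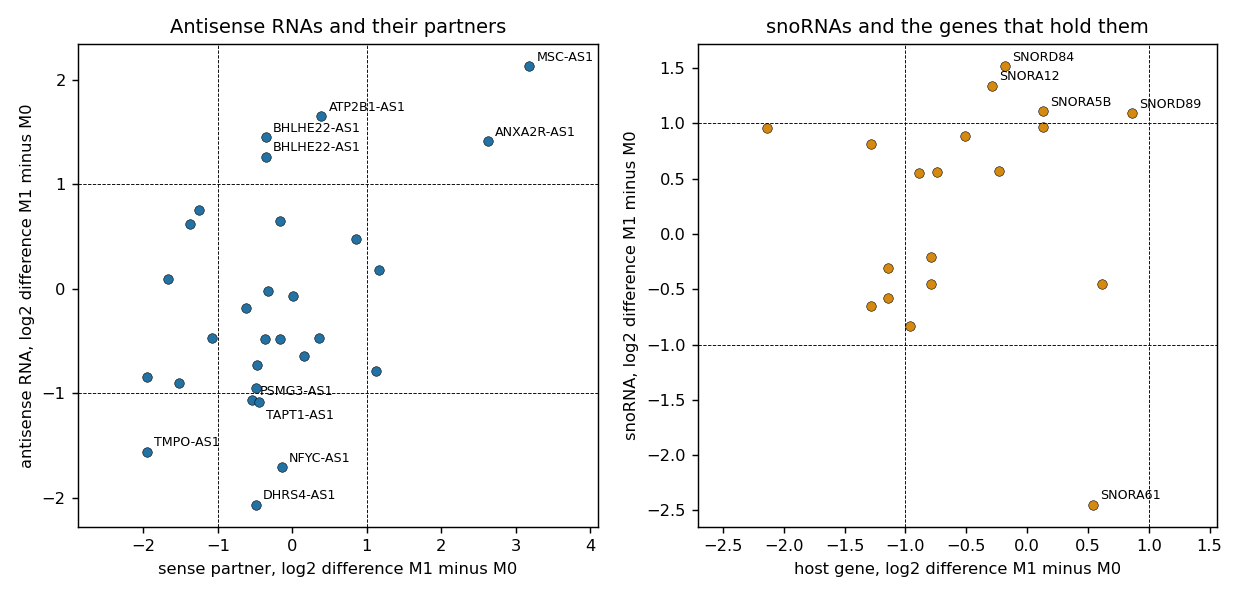
Log2 difference between M1 and M0 of antisense RNAs (left, y axis) against their sense partners (x axis), and of snoRNAs (right, y axis) against the genes that hold them (x axis), for pairs with both probes detected on M0 or M1, with dashed lines at 2-fold. On the left 3 of the 10 antisense probes past 2-fold have a partner past 2-fold in the same direction, and on the right none of the 5 snoRNAs past 2-fold does. Of all tested probes 15.0% rose and 17.6% fell on M1.

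Among antisense RNAs, 10 of 45 tested probes rose on M1 (22.2%), 6 fell (13.3%) and 29 did not pass. Of all tested probes 15.0% rose and 17.6% fell. The authors' table gave 1 higher and 1 lower (2.22% each), below the 7.57% and 6.88% of all tested probes. With the common median 15 rose (33.3%) and 2 fell (4.44%), against 20.1% and 10.5%. ATP2B1-AS1, antisense to a plasma membrane calcium pump gene, had log2 levels of 6.85 on M0, 8.50 on M1, 5.91 on M2a and 6.49 on M2c. Its raw intensities were 216.3, 332.5, 147.6 and 193.8. The transcript was detected on all 4 arrays and rose 3.13-fold on M1, while ATP2B1 differed by 0.39. NFYC-AS1, antisense to a subunit gene of the CCAAT-binding factor NF-Y, read 7.95, 6.24, 6.98 and 8.15, and fell 3.26-fold, while NFYC differed by -0.14. BHLHE22-AS1 rose 2.73-fold and 2.40-fold by its 2 probes, and BHLHE22, a transcription factor gene, differed by -0.36.

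Of 52 probes named -AS1, EPB41L4A-AS1 included, 47 had a partner on the array. Both were detected on M0 or M1 in 29 pairs. The antisense probe passed in 10 of these pairs, the partner passed in the same direction in 3 and in the opposite direction in none. Of all tested probes 15.0% rose and 17.6% fell on M1. Whether 3 of 10 departs from these shares was not tested. In other pairs only the partner passed on M1. It moved against the antisense RNA for ITPK1 (-1.37, antisense 0.62), ZBTB11 (-1.25, 0.75), EPB41L4A (1.13, -0.79) and VLDLR (-1.67, 0.09). It moved with the antisense RNA for OIP5 (-1.52, -0.9), OTUD6B (-1.08, -0.47), PGM5 (1.17, 0.18) and TMPO with the other TMPO-AS1 probe (-1.95, -0.85). MSC-AS1 had log2 levels of 4.78 on M0, 6.91 on M1, 4.70 on M2a and 4.41 on M2c, detected on M1 alone and at least 3.13-fold higher there. MSC, which encodes the transcription factor musculin, rose by 3.18, from 7.43 to 10.62. ANXA2R-AS1 was at least 1.86-fold higher on M1, where ANXA2R, an annexin A2 receptor gene, rose by 2.63. TMPO-AS1 was at least 1.61-fold lower on M1 by the probe that passed, and TMPO, which encodes the nuclear lamina protein thymopoietin, fell from 6.74 to 4.79, a level not detected on M1.

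The other antisense probes that passed had a partner that did not pass, was not detected or had no probe, the last for LY6S-AS1 and DLGAP1-AS1. CLCA4-AS1, PRKAR1B-AS1 and PAX8-AS1 were at least 3.24-fold, 2.56-fold and 1.99-fold higher on M1. DHRS4-AS1 read 7.33 on M0, 5.25 on M1, 6.91 on M2a and 7.27 on M2c, at least 3.28-fold lower on M1, and its other probe differed by -0.95. DHRS4, a retinol-metabolizing reductase gene, differed by -0.49. KCNJ5-AS1, TAPT1-AS1 and PSMG3-AS1 were at least 1.25-fold, 1.30-fold and 1.05-fold lower on M1. LY6S-AS1 and DLGAP1-AS1 were at least 1.61-fold and 1.89-fold higher. RAMP2-AS1 read 12.20, 12.88, 11.60 and 12.43, and ITPK1-AS1 10.84, 11.46, 10.06 and 10.91. For both the M1 array was the highest and M2a the lowest, and neither passed against M0. OIP5-AS1, the human counterpart of zebrafish cyrano, had a log2 difference of -0.90 on M1, and MRPL20-AS1 of -0.02.

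The LINC RNAs held the largest fall of all members. Of 41 tested, 11 rose on M1 (26.8%), 5 fell (12.2%) and 25 did not pass, against 15.0% and 17.6% of all tested probes. The authors' table gave 1 higher and 1 lower (2.44% each), below the 7.57% and 6.88% of all tested probes. The common median gave 15 (36.6%) and 2 (4.88%), against 20.1% and 10.5%. LINC01451 had log2 levels of 8.93 on M0, 4.71 on M1, 8.01 on M2a and 7.95 on M2c. Its raw intensities were 614.1, 102.8, 353.6 and 383.5, so that the M1 signal lay at the array's median raw intensity of 102.9. It was at least 9.95-fold lower on M1, and the smallest log2 difference under any other treatment was -2.40. On M2a and M2c it read 0.92 and 0.98 lower than on M0, just short of 2-fold. LINC01018, by contrast, read 10.23, 11.37, 9.70 and 10.60, and rose 2.21-fold on M1, where its raw intensity was 2315.2 against 1313.9 on M0.

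LINC01960 read 4.54 on M0, 6.83 on M1, 4.50 on M2a and 4.65 on M2c, detected on M1 alone and at least 2.95-fold higher there. LINC00092, LINC00926 and LINC03019, each detected on M0 and M1, rose 3.03-fold, 2.38-fold and 2.33-fold. LINC03040 was at least 2.58-fold higher on M1 by 1 probe, while its other probe differed by -0.01. LINC01003 was at least 2.24-fold higher on M1. LINC01751, LINC00473, LINC02693 and LINC01766 also rose by the measured values, with bounds of 1.63-fold, 1.56-fold, 1.35-fold and 1.5-fold. LINC00339 fell 2.55-fold and 2.10-fold by 2 probes and differed by -0.85 by the third. LINC00294 was at least 1.52-fold lower, and LINC02035 fell by 1.12 with no bound above 1. LINC00623 had a difference of 0.31.

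**Figure D4:**
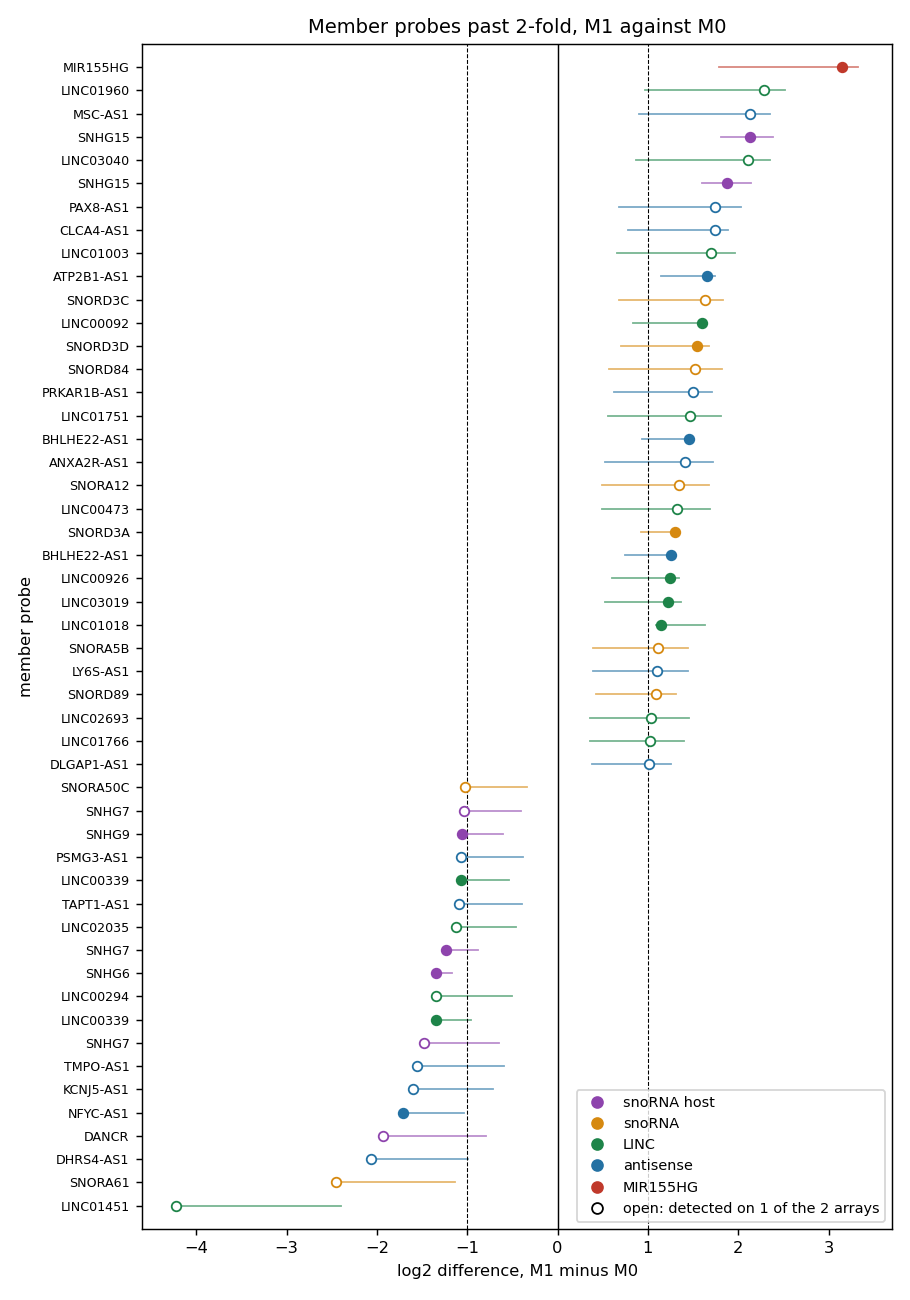
Log2 difference between M1 and M0 (x axis) for the 50 member probes past 2-fold (y axis), with filled circles where both arrays detected the probe, open circles where 1 did, and lines for the range over the other treatments of the intensities. No line crosses 0, and the lines of 9 probes stay outside the dashed 2-fold marks.

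Probes of the same gene could be set against each other where a gene had more than 1 member probe. Of 10 such genes, 8 gave the same direction by every probe on M1. The exceptions were LINC03040, whose 2 probes were each detected on 1 array, and SNHG32, with 1 probe detected on all arrays and 1 on M0 and M1 alone.

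Few members passed on M2a, the interleukin-4 state. On M2a 3 of 124 tested members rose (2.42%) and 2 fell (1.61%), against 3.84% and 4.30% of all 15844 tested probes, and the members' median log2 difference was -0.04. SNHG10, a host gene whose RefSeq interval holds no annotated snoRNA, read 5.97 on M0, 5.08 on M1, 7.17 on M2a and 5.69 on M2c. Its M2a value was the highest of the 4, and the rise was 2.30-fold. DANCR was the other host that rose. ID2-AS1, antisense to the gene of the differentiation inhibitor ID2, was at least 1.63-fold higher, while ID2 read 10.26 on M0 and 10.66 on M2a. TMPO-AS1, at 6.31 on M0 and 5.09 on M2a, was at least 1.94-fold lower, and LINC00926 at least 1.26-fold lower. None of the 5 passed in the authors' normalized table, where the differences of DANCR and SNHG10 were smaller, down to 0.61 and 0.63 over the alternatives.

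Fewer members still passed on M2c, the interleukin-10 state, where the shares of all tested probes were lower too. On M2c 2 of 118 tested members rose (1.69%) and 1 fell (0.847%), against 0.637% and 0.427% of all 15217 tested probes, with a median log2 difference of 0.04. These were DANCR, LINC01003 and SNORD3A. LINC01003 read 4.73 on M0, 6.43 on M1, 5.43 on M2a and 5.93 on M2c, and was at least 1.58-fold higher on M2c. None of the 3 passed in the authors' normalized table.

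Between the polarised states, M1 differed from M2a in 53 of 132 tested members, 32 higher and 21 lower on M1, where 32.7% of all tested probes passed in either direction. SNHG10 was at least 2.93-fold lower on M1 than on M2a, and RAMP2-AS1 and ITPK1-AS1 were higher by 1.28 and 1.40 on the log2 scale. M1 differed from M2c in 49 of 126, 29 higher and 20 lower, where 37.0% of all probes passed. SNHG1 was lower on M1 than on M2c by 1.51 on that scale. M2a and M2c differed in 9 of 114, where 10.6% of all probes passed. SNHG10 (2.78-fold) and DOCK8-AS1 (2.27-fold) were higher on M2a, as was LINC00399 (at least 1.35-fold). NFYC-AS1 was 2.25-fold higher on M2c, and LINC00997, TMPO-AS1, VLDLR-AS1, LINC02209 and SNORA25 were at least 2.33-fold, 2.12-fold, 1.71-fold, 1.5-fold and 1.28-fold higher there.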

How the data were processed

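The authors deposited non-normalized and normalized intensity values with a detection p-value for each of 47228 probes on 4 arrays. GenomeStudio is the software named in the submitters' processing notes. The normalized intensity values of the authors matched a quantile normalization of the raw signals (sorted columns within 0.437%). The deposited detection p-value, which ranks a probe among negative controls, was taken from the non-normalized table.

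Raw intensities were corrected by normexp with limma 3.58.1 in R 4.3.3 (nec, controls inferred from the detection p-values, offset 16), quantile-normalized and put on the log2 scale, with Python 3.11.15 for the rest. The offset understates differences of dim probes. Probes were named from the platform annotation, updated through the RefSeq gene table of GRCh38.p14 (30072 of 30111 with a single symbol). Groups came from the sample titles, and 6 pairs of arrays were compared without a test. The call rule was checked on simulated data in which only bright probes detected on M0 were changed. That check does not cover dim probes, on which most member calls rested.

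The members and gene lists were chosen with earlier results of these data known, and membership used detection on the same arrays, so counts over members are descriptions. Members named are those past 2-fold against M0 or between the M2 arrays, all SNHG and SNOR members, the 8 names in the rule, the 12 with the highest mean, those at the detection limit and, for antisense RNAs, the sense partner. The hosts of snoRNAs, and SNHG10, RAMP2-AS1, ITPK1-AS1 and SNHG1 between polarised arrays, were named after their values were seen. So were the antisense pairs in which only the partner passed. The lists cover snoRNA particle proteins, their assembly factors, nonsense-mediated decay, protein-coding snoRNA hosts, paraspeckle proteins, speckle proteins, and microRNA processing with miR-155 targets, and each list's 3 largest changes on M1, with those past 2-fold on M2a, were named. A gene's brightest probe stood for it in the lists.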

Additional observations from a re-analysis of the deposited data

How the results depend on the processing

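No member probe past 2-fold against M0 changed sign under another treatment of the intensities, while the members' small M2a median of -0.04 became 0.02 for probes detected on both arrays and 0.01 with 1 probe a gene. No paired analysis was possible because each group has 1 sample. On M1, where 31 members rose and 19 fell, the counts were 5 and 4 in the authors' normalized table, 5 and 4 with the background left in, 14 and 8 at an offset of 50, 12 and 6 for probes detected on both arrays, and 49 and 34 at 1.5-fold. With arrays scaled to a common median 44 rose and 9 fell, and the members' median of 0.18 became 0.45, while that of all probes tested on M0 or M1 went from -0.17 to 0.12. The members' median was 0.28 for probes detected on both arrays. Of all probes tested on M0 or M1, 7.57% rose and 6.88% fell in the authors' table, against 15.0% and 17.6% in the main processing. Of the 50 probes past 2-fold on M1, 40 still passed with the common median, 22 with the offset of 50 and 9 in the authors' table. On M2a, with 3 higher and 2 lower, the counts were 0 and 0 in the authors' table, with the background left in and at the offset of 50. They were 5 and 5 with the common median and 19 and 21 at 1.5-fold. Without the M1 array 5 were higher, and 0 were lower among probes detected on both arrays. On M2c, with 2 higher and 1 lower, those same 3 settings gave 0 and 0, and 1.5-fold gave 9 and 5. The common median and the normalization without M1 each gave 2 lower, and 1 was higher among probes detected on both arrays. Members past 2-fold between M1 and M2a went from 53 to 14 (authors' table), 13 (no correction), 30 (offset of 50), 19 (both arrays) and 88 (1.5-fold). Between M1 and M2c they went from 49 to 14, 14, 24, 15 and 90, and between M2a and M2c from 9 to 0, 0, 2, 3 and 43. Both the uncorrected background and a larger offset shrink differences of dim probes by construction. The authors' table and the uncorrected background are nearly the same processing, so their like counts are not separate checks. The cause of the other shifts was not tested. Signal over background limits most members: 53 of 158 were detected on all arrays.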
